A study of Mus musculus with 18 samples.

Results

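The genes described here are 9 members of the mouse MS4A family, named for membrane-spanning 4-domain proteins of subfamily A: Ms4a14, Ms4a7, Ms4a4a, Ms4a4b, Ms4a4c, Ms4a6b, Ms4a6c, Ms4a6d and Ms4a1. They were taken as the probes annotated to each symbol alone, and each gene had 1 such probe. They make up 9 of the 20 MS4A genes with a probe of their own and 9 of the 22180 genes tested. The members were chosen by values measured on these arrays, since the list was drawn up with earlier results known. The known result that named the family was the higher Ms4a14 RNA of GFP-plus macrophages with CD103. That difference is therefore given as a description, and nothing is read from its test. Which values led to the other 8 genes is not known, and adjusted p-values for them place each gene among all genes and are no independent support.

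Expression was measured on 18 Affymetrix arrays with RNA from phagocytes of the small intestine of male and female VDTR mice. Intestinal epithelial cells of these mice carry the receptor for diphtheria toxin, joined to green fluorescent protein (GFP). All groups came from mice given the toxin into the peritoneum, at 2 ng for each kg, 4 hours before collection, and no toxin-free group was analysed here. Live CD45+ CD11c+ MHCII+ cells were sorted as CD103+ CD24+ dendritic cells (DCs), as CD103+ CD11b+ CD64+ macrophages or as CD11b+ CD64+ macrophages, and each population was divided into GFP-minus and GFP-plus cells. GFP-plus phagocytes are taken to hold material of epithelial origin. The 6 groups had 3 arrays each. The labels do not say whether the replicates were separate mice, so the p-values reflect no more than the spread among the samples at hand.

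The deposited values are on a log2 scale and are relative to each probe's own median over the 18 arrays. A value of -4 on a DC array therefore means 4 log2 units under that probe's middle array. Levels of different genes cannot be compared, and detection above background cannot be read. The median of an array lay between -0.0377 and 0.0494, its interquartile range between 0.256 and 0.578, and array quality weights estimated in limma ran from 0.352 to 2.52. That range was 0.578, 0.394 and 0.474 in GFP-plus DCs and 0.375, 0.278 and 0.293 in GFP-minus DCs. The GFP comparison in DCs is thus between arrays of unlike spread, whereas the gates of each macrophage population overlapped in it. No 2 arrays had the same values, and the highest correlation between arrays was 0.684. In bulk sorted samples, fewer cells of a type and less RNA per cell cannot be told apart.

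The sort labels were checked against markers. Of 11 measured resident macrophage markers, 11 passed as higher in the CD103 CD11b CD64 macrophages than in DCs and 10 in the CD11b CD64 macrophages. All 11 DC markers were lower in both macrophage populations than in DCs, and 9 and 8 of them passed. The differences of Itgae, which encodes CD103, from its DC values were -4.49 ± 0.46 (SE) and -5.68 ± 0.46 log2 in these macrophages. Between the macrophage populations, which were parted by CD103, Itgae differed by 1.19 ± 0.46 (adjusted p = 0.790, limma with Benjamini-Hochberg adjustment) and did not pass. By gate, its mean with CD103 was 1.89 in GFP-minus and -0.18 in GFP-plus cells, and without CD103 it was -0.32 and -0.35, so that the GFP-plus groups were nearly level. Of 11 measured T and NK cell markers, 8 were above DCs in the CD103 CD11b CD64 macrophages, with 4 passed as higher and 1 as lower. In the CD11b CD64 macrophages 8 of 11 were below DCs, with 2 passed as lower and 0 as higher. All 11 were higher with CD103 than without it, and 1 passed. The part of such cells in the sorted samples was not tested.

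MS4A proteins are small proteins that cross the membrane several times and sit beside immune receptors in many leukocytes. The best known is CD20, the product of Ms4a1, on B cells. Ms4a2 encodes the beta chain of the high-affinity IgE receptor of mast cells, and Ms4a7, Ms4a4a and the Ms4a6 genes are known from macrophages and microglia. In the RefSeq table all 21 mouse MS4A genes lie on chromosome 19, with 1 other protein-coding gene among them. Several arose by duplication and remain alike in sequence.

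That likeness reaches into the promoters for 2 pairs of these genes. RefSeq promoter windows of the build GRCm38.p6, from 250 bases before to 50 after the start site, were matched for 7 of the 9 genes, with 8 windows in all because Ms4a7 has 2 starts. Ms4a1 and Ms4a6d were not matched. The paired stretches below are shown because they hold the longest runs shared by any pair of these genes. Every other pair shared a run of at most 9 bases. They are written 5′ to 3′ on the gene's strand, with the shared run in capitals. The Ms4a6b stretch is chr19:11518391-11518488 and the Ms4a6c stretch is chr19:11469269-11469366, both on the plus strand. They share 48 bases and are identical at 68 of 98 positions.
Ms4a6b: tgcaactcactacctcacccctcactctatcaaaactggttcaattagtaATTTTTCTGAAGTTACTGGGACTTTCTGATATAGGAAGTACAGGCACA
Ms4a6c: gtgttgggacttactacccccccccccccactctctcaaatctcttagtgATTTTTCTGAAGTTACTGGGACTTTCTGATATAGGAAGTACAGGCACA
The Ms4a4b stretch is chr19:11443477-11443536 and the Ms4a4c stretch is chr19:11407583-11407642, both on the plus strand. They share a run of 20 bases and are identical at 54 of 60 positions.
Ms4a4b: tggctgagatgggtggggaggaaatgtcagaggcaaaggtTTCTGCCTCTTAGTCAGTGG
Ms4a4c: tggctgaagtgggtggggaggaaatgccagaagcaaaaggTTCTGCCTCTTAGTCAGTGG
The 150 bases before the Ms4a14 start, chr19:11314455-11314604 on the minus strand, are shown because Ms4a14 had the largest GFP difference of the family. Capitals mark a match to GAGGAA on the opposite strand.
Ms4a14: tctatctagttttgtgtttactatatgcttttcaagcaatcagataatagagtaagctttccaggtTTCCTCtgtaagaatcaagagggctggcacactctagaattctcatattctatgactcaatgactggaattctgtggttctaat

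Each motif was searched on both strands. The purine-rich core GAGGAA, as bound by PU.1-type factors, was found in the windows of Ms4a14, Ms4a4b, Ms4a4c and Ms4a7 and in 28.3% of all 32851 windows of 300 bases. A longer form, AGGAAGT, was found in Ms4a6b and Ms4a6c, inside their shared run and, in Ms4a6b, once more nearer the start on the opposite strand. It was found in 9.35% of all windows. The core of interferon response elements, GAAA repeated after 2 bases of any kind, had 0 matches in the 8 windows against 3.44% of all, and the Maf-type TGCTGAC had 0 against 4.67%. A match is a description of the letters and not a site of binding. Whether the probes of such closely related genes bind each other's RNA cannot be judged, because probe sequences were not used here.

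Most of these genes had far more RNA in both macrophage populations than in DCs. Averaged over both GFP gates, 7 of the 9 genes passed as higher in the CD103 CD11b CD64 macrophages (adjusted p under the 0.05 threshold, limma with Benjamini-Hochberg adjustment), against 5.33% of all genes tested. In the CD11b CD64 macrophages the same 7 of 9 passed, against 5.94% of all genes. The 7 were Ms4a7, Ms4a6b, Ms4a6c, Ms4a6d, Ms4a4a, Ms4a4c and Ms4a14. Ms4a14 counts here mainly through the GFP-plus macrophages in which it was chosen as high, and without it 6 of the other 8 genes passed in each comparison. After quantile normalization all 7 still passed in both, with differences of 1.19 to 3.72 log2 and of 1.38 to 3.72. These were smaller for each gene but Ms4a14, which stood at 2.96 and 1.45 log2. In the CD11b CD64 macrophages its adjusted p was then 0.0495 (limma with Benjamini-Hochberg adjustment), which lies at the threshold. The median difference of the 9 genes was 3.43 and 3.70 log2, where the median of all genes was 0.0227 and 0.0262. Without overlap with the 6 DC arrays were 6 of the 9 genes in the CD103 CD11b CD64 macrophages, against 2.72% of all genes, and 7 of 9 in the CD11b CD64 macrophages, against 3.64%. Ms4a14 made the difference between these counts.

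**Figure D1:**
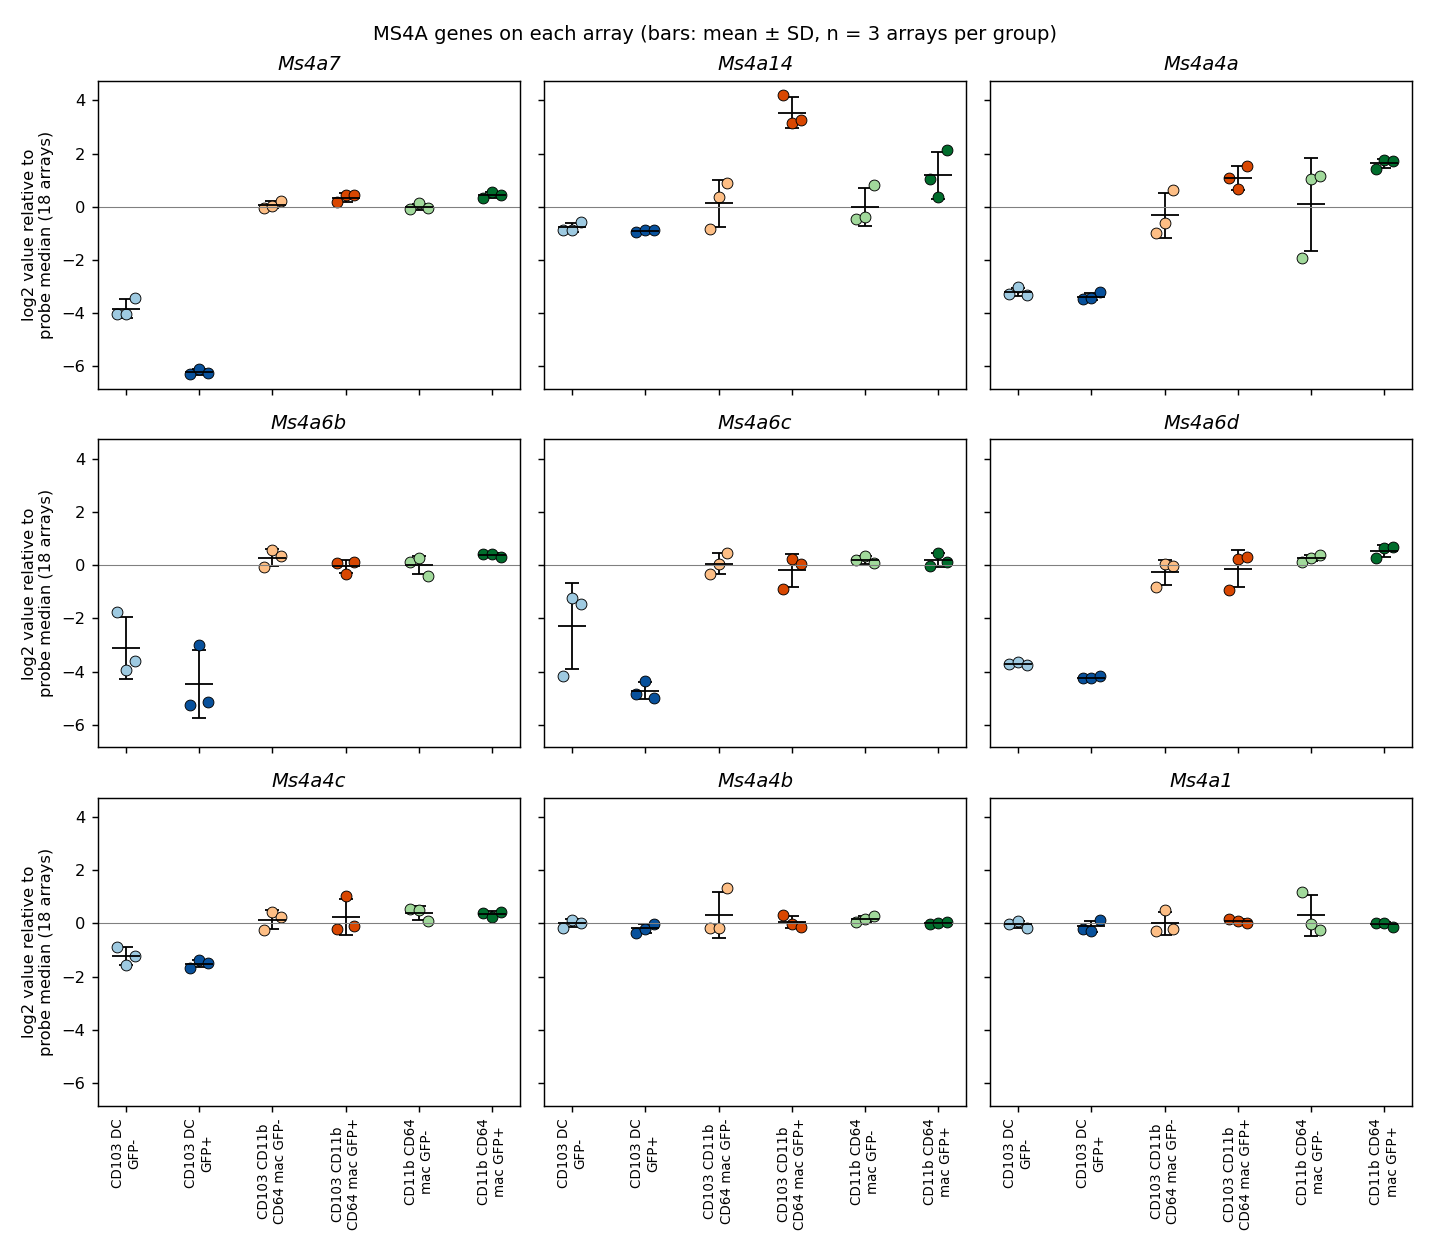
Log2 value relative to the probe's median over 18 arrays (y axis) for each of the 9 MS4A genes in the 6 groups (x axis). Points are single arrays, and bars give the mean ± SD of 3 arrays. Ms4a7 sits at -6.30 to -3.41 on DC arrays and at -0.07 to 0.54 on macrophage arrays, whereas Ms4a14 is highest in GFP-plus CD103 CD11b CD64 macrophages.

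Ms4a7, a gene used as a macrophage marker, gave the clearest difference. Its values were -4.04, -4.03 and -3.41 in GFP-minus DCs and -6.30, -6.08 and -6.24 in GFP-plus DCs. In CD103 CD11b CD64 macrophages they were -0.03, 0.03 and 0.22 in the GFP-minus gate and 0.17, 0.44 and 0.43 in the GFP-plus gate. In CD11b CD64 macrophages they were -0.07, 0.12 and -0.04, then 0.34, 0.54 and 0.45. Every macrophage array was above every DC array, and the 2 macrophage populations overlapped. The difference from DCs was 5.23 ± 0.11 (SE) log2 in the CD103 CD11b CD64 macrophages, or 37.5-fold (limma, Benjamini-Hochberg adjusted p = 4.64e-13), and 3.72 ± 0.12 log2 after quantile normalization. For the CD11b CD64 macrophages it was 5.24 ± 0.11 log2 (adjusted p = 5.97e-13). By p-value, Ms4a7 ranked 4 and 3 of 22180 genes in these comparisons.

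The Ms4a6 genes, a group of near-neighbours on the chromosome, followed. Ms4a6d, known from activated macrophages, was at -3.73, -3.63 and -3.76 in GFP-minus DCs and at -4.26, -4.26 and -4.16 in GFP-plus DCs. Its 12 macrophage arrays lay between -0.93 and 0.67, all above the DC arrays. The difference was 3.76 ± 0.20 log2 for the CD103 CD11b CD64 macrophages and 4.36 ± 0.20 for the CD11b CD64 macrophages. Ms4a6d varied little among DC arrays, which was not so for the next pair.

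Ms4a6b had values of -1.78, -3.95 and -3.61 in GFP-minus DCs and of -5.24, -3.01 and -5.16 in GFP-plus DCs, so that the gates overlapped. For Ms4a6c they were -4.17, -1.25 and -1.45, against -4.83, -4.37 and -4.98. GFP-minus DC replicate 1 was the highest of its group for Ms4a6b and the lowest for Ms4a6c, although the probes are of closely related genes. On macrophage arrays Ms4a6b ran from -0.40 to 0.55 and Ms4a6c from -0.89 to 0.46. The difference from DCs was 3.90 ± 0.40 and 3.98 ± 0.40 log2 for Ms4a6b in the CD103 CD11b CD64 and the CD11b CD64 macrophages. Ms4a6c differed by 3.43 ± 0.40 and 3.70 ± 0.40.

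Ms4a4a, a surface protein known from alternatively activated macrophages, was at -3.29, -3.02 and -3.32 in GFP-minus DCs and at -3.46, -3.45 and -3.21 in GFP-plus DCs. The macrophage values spread more. They were -0.97, -0.62 and 0.62 in GFP-minus and 1.07, 0.65 and 1.53 in GFP-plus CD103 CD11b CD64 macrophages, and -1.94, 1.04 and 1.17 in GFP-minus and 1.43, 1.75 and 1.71 in GFP-plus CD11b CD64 macrophages. GFP-minus CD11b CD64 replicate 1, one of the 4 arrays of lowest weight, was the low one. Ms4a4a was 3.67 ± 0.44 and 4.15 ± 0.44 log2 higher than in DCs.

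Ms4a4c and Ms4a4b, which share most of the promoter stretch printed above, differed in this comparison. Ms4a4c, which is often listed among interferon-induced genes, lay between -1.66 and -0.91 on DC arrays and between -0.26 and 1.01 on macrophage arrays, and it was 1.55 ± 0.20 and 1.75 ± 0.20 log2 higher in the macrophages. Ms4a4b, known from T cells, lay between -0.35 and 0.15 on DC arrays and between -0.19 and 1.32 on macrophage arrays. Its differences from DCs, 0.28 ± 0.21 and 0.19 ± 0.21 log2, did not pass. Its highest array, 1.32, was GFP-minus CD103 CD11b CD64 replicate 3. That array also had the highest mean of 11 measured T and NK cell markers, 2.72. The other 2 arrays of the group, replicates 2 and 1, had means of 1.39 and 1.42, with Ms4a4b at -0.16 and -0.19. The part of T or NK cells in the Ms4a4b value was not tested.

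Ms4a1, the CD20 gene, stayed between -0.29 and 0.50 on all arrays but 1. That array, GFP-minus CD11b CD64 replicate 1, was at 1.16, and its mean over 7 measured B cell markers was 0.131. GFP-minus CD103 CD11b CD64 replicates 1 and 2 had higher B cell means, 0.265 and 0.178, with Ms4a1 at -0.29 and 0.50. The part of B cells in that value was not tested. The differences from DCs were 0.12 ± 0.21 and 0.21 ± 0.21 log2 and did not pass. Centring removes the level at which a probe reads 0, so that which B or T cell markers were absent cannot be read.

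Ms4a14 was the 7th gene past the threshold, which it did not reach in GFP-minus cells alone. DC arrays lay between -0.97 and -0.56. In GFP-minus cells it was 0.91 ± 0.49 log2 above DCs in the CD103 CD11b CD64 macrophages (adjusted p = 0.469) and 0.77 ± 0.49 in the CD11b CD64 macrophages (adjusted p = 0.584), by limma with Benjamini-Hochberg adjustment, and neither passed. In GFP-plus cells the differences were 4.44 ± 0.49 and 2.09 ± 0.49, and the first of these rests on the arrays that named the family. The other 6 genes passed in both gates in both comparisons. For Ms4a7 the GFP-minus differences were 3.90 and 3.83 log2 and the GFP-plus differences 6.56 and 6.65.

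**Figure D2:**
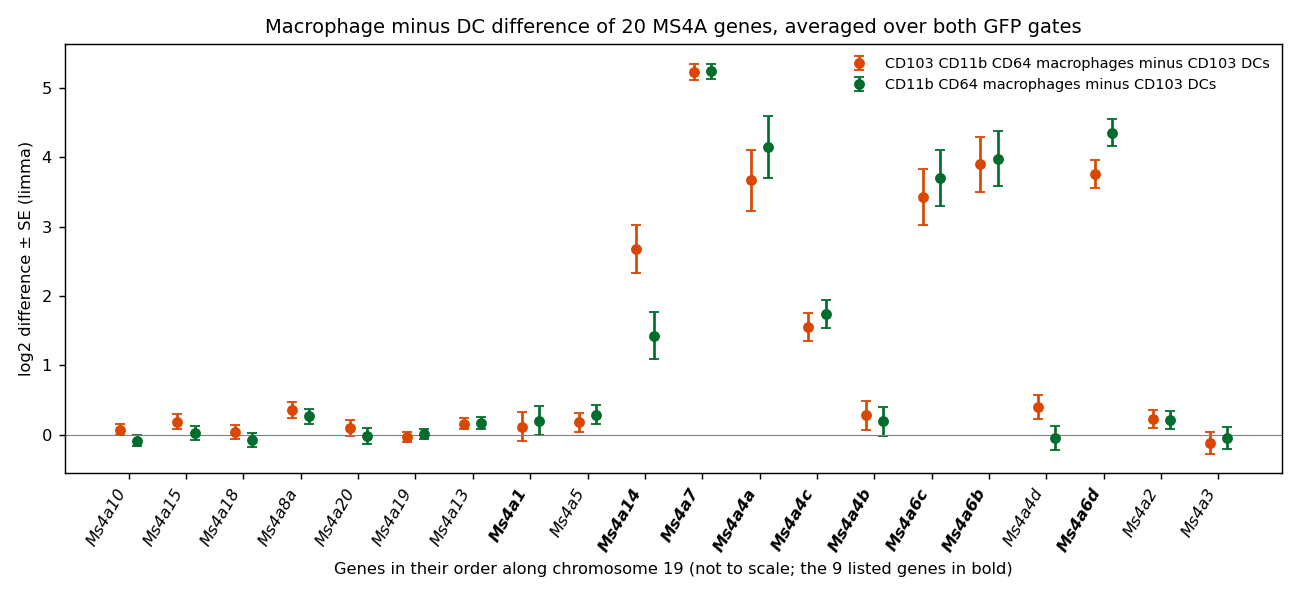
Difference between each macrophage population and DCs (y axis, log2 ± SE from limma, averaged over both GFP gates) for 20 MS4A genes in their order along chromosome 19 (x axis, not to scale, listed genes in bold). Differences of 1.43 to 5.24 log2 lie between Ms4a14 and Ms4a6d, and Ms4a4b and Ms4a4d in that stretch are near 0.

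Across the whole family, the genes that passed lay in 1 stretch of the cluster. Of the other 11 MS4A genes, 10 were in a list named with the comparisons, and 0 of these 10 passed in any of the 8 comparisons. By unadjusted p under 0.05 in limma, 2 of the 10 differed in the CD103 CD11b CD64 macrophages against DCs, where 18.2% of all genes did, and 1 in the CD11b CD64 macrophages, where 18.5% did. Between GFP gates, 2 of the 10 did in the CD103 CD11b CD64 macrophages, where 9.20% of all genes did. These were Ms4a8a at -0.74 ± 0.16 log2 and Ms4a18 at -0.44 ± 0.14, both lower in the GFP-plus gate. There was 1 in the CD11b CD64 macrophages, against 6.16%, and 0 in DCs, against 15.4%. The group means of the other 11 genes spanned 0.0946 to 0.738 log2, with Ms4a8a widest. The listed genes Ms4a14, Ms4a7, Ms4a4a, Ms4a6b, Ms4a6c and Ms4a6d spanned 4.44 to 6.65, and Ms4a4c spanned 1.90. The listed genes were chosen by values on these arrays, so this contrast may follow from the choice and is a description only. The Ms4a14 span includes the arrays that named the family. Ms4a4b and Ms4a1, also listed, spanned 0.514 and 0.412, inside the range of the other 11 genes. In chromosome order, the 7 genes that passed ran from Ms4a14 through Ms4a7, Ms4a4a, Ms4a4c, Ms4a6c and Ms4a6b to Ms4a6d, interrupted by Ms4a4b and by Ms4a4d. Ms4a14, at one end, did not pass in GFP-minus cells alone. Ms4a2 and Ms4a3, known from mast cells and from myeloid progenitors, adjoin this stretch. Tmem176a and Tmem176b, membrane protein genes related to the family but on another chromosome, were also higher in macrophages, by 4.41 ± 0.18 and 5.55 ± 0.11 log2 in the CD103 CD11b CD64 macrophages and 4.17 ± 0.18 and 5.50 ± 0.11 in the CD11b CD64 macrophages.

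Between the macrophage populations none of the 9 genes passed when both gates were averaged, against 0.0721% of all genes tested (limma, Benjamini-Hochberg). At an unadjusted p under 0.05 there were 2, against 5.51% of all genes. These were Ms4a14, at 1.25 ± 0.34 log2 and including the arrays that named the family, and Ms4a6d, at -0.59 ± 0.20 (adjusted p = 0.674). The comparison does not show that the populations had the same levels.

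In DCs, the GFP-plus gate had less Ms4a7. The fall was by 2.38 ± 0.16 log2, or 5.21-fold lower (limma, Benjamini-Hochberg adjusted p = 5.59e-06), and only 1 of 22180 genes had a smaller p-value. All 3 GFP-plus arrays lay more than 2 log2 under all 3 GFP-minus arrays. Ms4a6c was lower by a similar amount, 2.44 ± 0.57 log2 or 5.41-fold, with an adjusted p of 0.0497 that lies at the threshold. Its 3 arrays in each gate did not overlap, but the GFP-minus arrays were far apart. Thus 2 of the 9 genes passed in this comparison, both lower, against 1.58% of all genes and 1.26% in that direction.

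The Ms4a6c call was lost in 20 of 26 alternative settings, with an adjusted p of up to 0.298. In most of those settings the difference itself stayed at -2.44. After quantile normalization, where the call was lost, it was -1.0. Without GFP-minus DC replicate 1 the call was kept, at -3.38 ± 0.32 log2 (adjusted p = 9.92e-05, limma with Benjamini-Hochberg). Ms4a6b, at -1.36 ± 0.56, did not pass (adjusted p = 0.260, limma with Benjamini-Hochberg), although it did without GFP-plus DC replicate 2, at -2.09 (adjusted p = 0.0318). Ms4a6d, at -0.52 ± 0.28 (adjusted p = 0.403), was the third gene whose gates did not overlap, and 11.5% of all genes had such lower values without overlap. The other 5 genes differed by -0.28 to -0.08. All 9 differences were below 0 as deposited, but 4 of 9 were above 0 after quantile normalization, under which Ms4a7 stood at -1.58 (adjusted p = 0.000457) and Ms4a6c had an adjusted p of 0.265.

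Markers of other cells moved between these DC gates as well. The mean of the resident macrophage markers was -4.39 to -3.57 on GFP-minus and -4.68 to -4.53 on GFP-plus DC arrays. Of its 11 measured genes, 9 were lower in the GFP-plus gate and 1, the complement gene C1qa, passed, at -1.53 ± 0.35 (adjusted p = 0.0452 in limma). The mean of inflammatory monocyte markers had a median over the arrays of 0.30 in the GFP-minus and of -0.63 in the GFP-plus gate, with 5 of 7 genes lower and 0 passed. T and NK cell markers had means of 0.47 to 0.99 and then -0.18 to -0.10. Of 11 measured T and NK cell markers 10 were lower in the GFP-plus gate, and 1, Gzma, passed at -3.87 ± 0.47. Enterocyte markers had means of -0.38 to -0.01 and then 0.36 to 0.84, with 8 of 8 higher and 0 passed. In the same comparison 6 of 7 B cell markers, 3 of 8 mast cell markers and 8 of 11 DC markers were lower, and 0 of each passed. Their part in the Ms4a7 and Ms4a6c differences was not tested, and which markers are at 0 cannot be read from centred values.

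**Figure D3:**
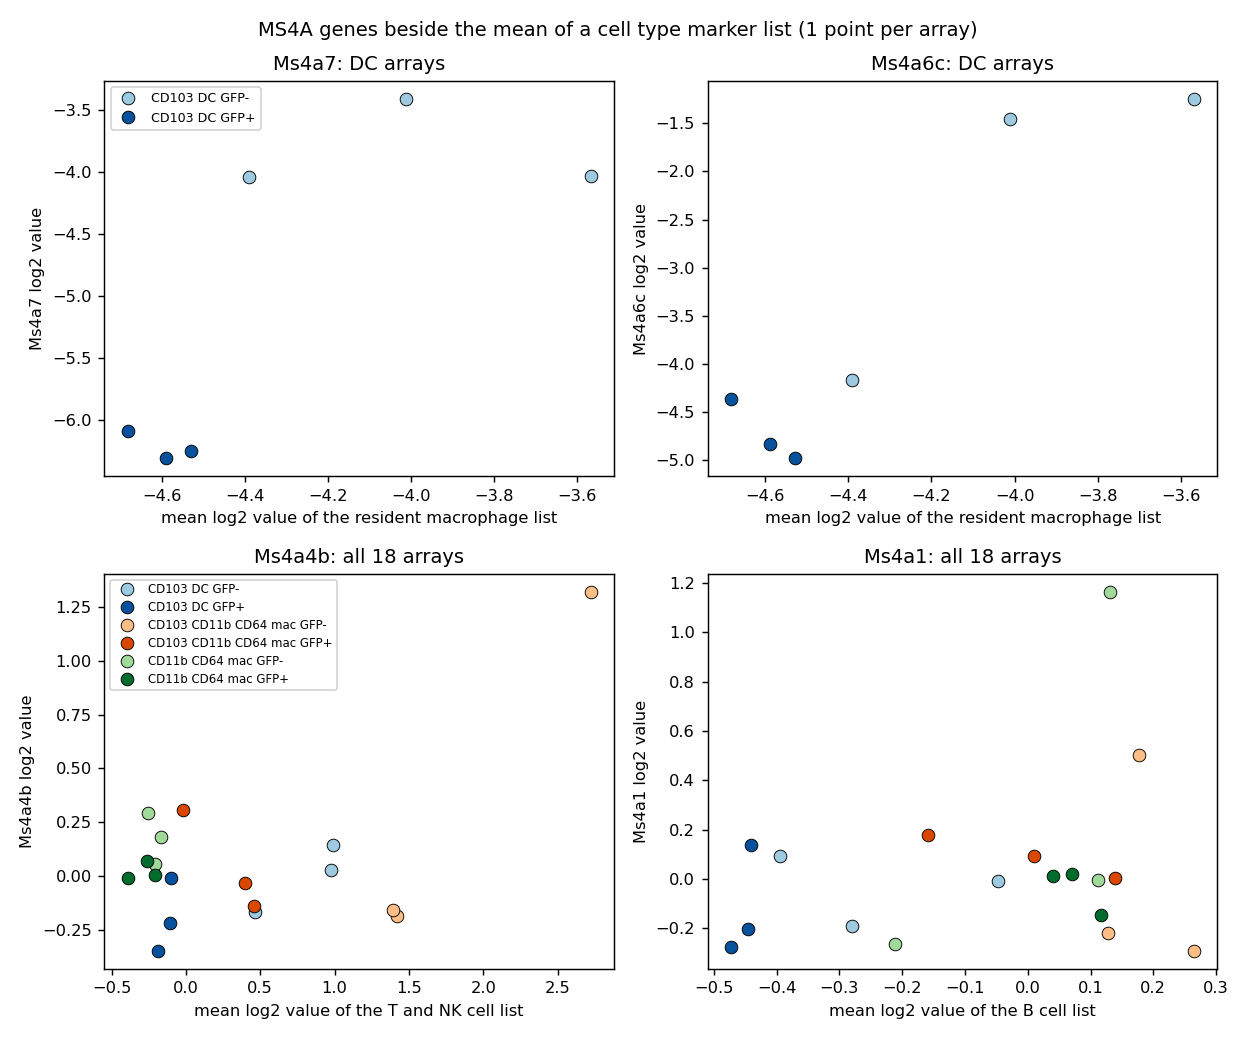
Log2 value of Ms4a7, Ms4a6c, Ms4a4b or Ms4a1 (y axis) against the mean log2 value of a marker list on the same array (x axis), with 1 point per array coloured by group. DC arrays are shown for Ms4a7 and Ms4a6c, with GFP-plus arrays at -4.68 to -4.53 on the resident macrophage list, and all 18 arrays for Ms4a4b and Ms4a1. The Ms4a4b array at 1.32 has a T and NK cell mean of 2.72, and the Ms4a1 array at 1.16 has a B cell mean of 0.131.

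In macrophages the GFP difference that stood out was that of Ms4a14. In the CD103 CD11b CD64 macrophages its values were -0.84, 0.37 and 0.88 in the GFP-minus gate and 4.20, 3.14 and 3.26 in the GFP-plus gate. The gates did not overlap, and the means, 0.13 ± 0.88 (SD, n = 3) and 3.53 ± 0.58 (SD, n = 3), differed by 3.40 ± 0.49 (SE) log2, or 10.5-fold. Since this difference named the family, it is given as a description. It was 1 of 9 genes past the threshold, where 0.0541% of all genes were, and nothing is read from that count. Ms4a4a differed by 1.41 ± 0.62 log2, Ms4a7 by 0.27 ± 0.16 and the other genes by -0.32 to 0.13.

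In the CD11b CD64 macrophages the Ms4a14 values were -0.46, -0.37 and 0.82 in the GFP-minus gate and 1.03, 0.38 and 2.13 in the GFP-plus gate. The gates overlapped, and the difference of 1.18 ± 0.49 log2 did not pass (adjusted p = 0.767, limma with Benjamini-Hochberg). None of the 9 genes passed in this comparison, against 0.0271% of all genes, and 3 did at an unadjusted p under 0.05, against 6.16%. These were Ms4a14, Ms4a4a at 1.54 ± 0.62 (adjusted p = 0.752) and Ms4a7 at 0.44 ± 0.16 (adjusted p = 0.687). Ms4a7, Ms4a4a and Ms4a6b were higher in all 3 GFP-plus arrays than in all 3 GFP-minus arrays, as 9.63% of all genes were.

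Averaged over both macrophage populations, the GFP difference of Ms4a14 was 2.29 ± 0.34 log2, which shares its larger part with the difference that named the family. It was the 1 gene of 9 past the threshold, where 0.415% of all genes were, and nothing is read from that count. The average of Ms4a4a was 1.47 ± 0.44 (adjusted p = 0.172) and that of Ms4a7 was 0.36 ± 0.11 (adjusted p = 0.202), both by limma with Benjamini-Hochberg adjustment and neither past the threshold. Over 26 alternative settings the Ms4a14 difference in the CD103 CD11b CD64 macrophages stayed between 2.91 and 4.42 log2. In 3 of these settings it was not past the threshold. The range comes from the arrays that named the family and is no support for the difference.

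Marker lists also moved between the macrophage gates. In the CD103 CD11b CD64 macrophages the inflammatory monocyte mean was 0.63 to 1.16 in the GFP-minus and -0.48 to 0.03 in the GFP-plus gate, with 6 of 7 genes lower and 0 passed. The T and NK cell mean was 1.39 to 2.72 and then -0.02 to 0.46, with 9 of 11 lower. Of these 1, Cd7, passed at -3.61 ± 0.56. Resident macrophage markers had a mean of 0.07 to 0.59 and then 0.68 to 0.99, with 7 of 11 higher and 0 passed. Enterocyte markers had a mean of -0.26 to -0.04 and then 0.14 to 0.70, with 5 of 8 higher and 0 passed. The DC marker mean was -0.43 to 0.60 and then -1.13 to -0.28, with 7 of 11 lower and 0 passed. Of the B cell markers 6 of 7 were lower, and of the mast cell markers 4 of 8, and 0 of each passed. In the CD11b CD64 macrophages the inflammatory monocyte mean was 0.48 to 1.16 and then -0.73 to -0.28, with 6 of 7 lower and 1, Plac8, past the threshold at -3.62 ± 0.49. There the resident macrophage mean was -0.12 to 0.10 and then 0.44 to 0.47, with 9 of 11 higher and 0 passed, and the enterocyte mean was -0.41 to -0.13 and then 0.22 to 0.59, with 5 of 8 higher and 0 passed. In the same population 7 of 11 DC, 7 of 11 T and NK cell, 4 of 7 B cell and 6 of 8 mast cell markers were lower. Of these lists 0 markers passed. Averaged over both macrophage populations, 3 inflammatory monocyte markers and 1 T and NK cell marker passed as lower, and 1 resident macrophage marker passed as higher. The part of these cells in the Ms4a14 difference was not tested.

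**Figure D4:**
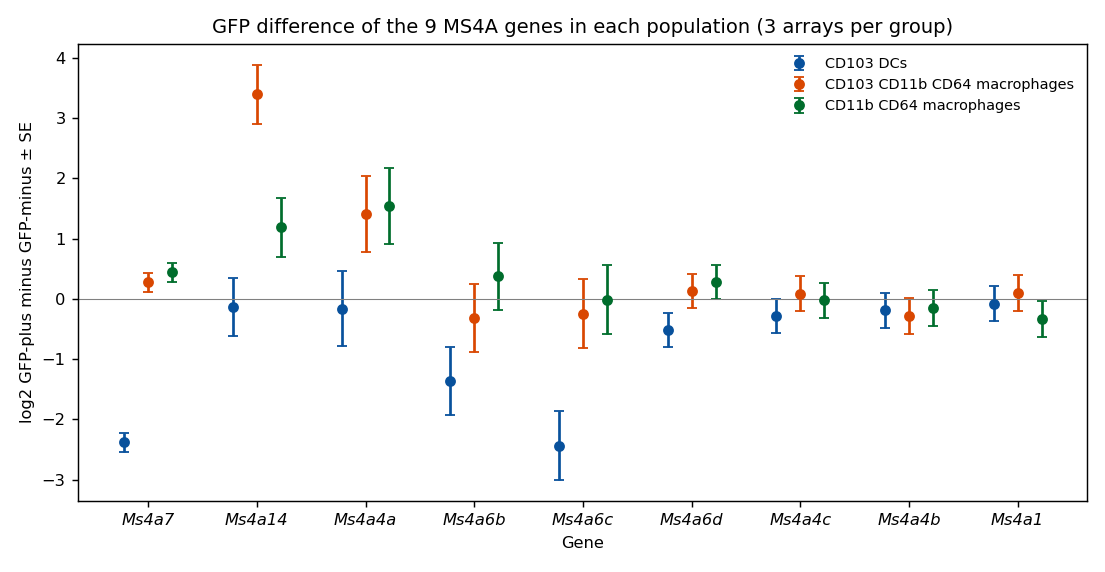
GFP-plus minus GFP-minus difference (y axis, log2 ± SE from limma, 3 arrays per group) of the 9 MS4A genes (x axis) in the 3 populations (colours). Ms4a7 is at -2.38 in DCs and at 0.27 and 0.44 in the macrophages, and Ms4a14 is at 3.40, 1.18 and -0.13.

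Whether the GFP difference itself depended on the population was asked with an F-test over the 3 populations. It passed for 1 of the 9 genes, Ms4a7 (adjusted p = 0.000118, limma with Benjamini-Hochberg), against 0.361% of all genes. The GFP difference of Ms4a7 in DCs minus that in the CD103 CD11b CD64 macrophages was -2.65 ± 0.23 log2, and minus that in the CD11b CD64 macrophages it was -2.82 ± 0.23. That of Ms4a6c did not pass (adjusted p = 0.277), except without GFP-minus DC replicate 1 (adjusted p = 0.00295). For Ms4a14, whose GFP difference named the family, the GFP differences are given side by side with no test: 3.40 ± 0.49 log2 in the CD103 CD11b CD64 macrophages, 1.18 ± 0.49 in the CD11b CD64 macrophages and -0.13 ± 0.49 in DCs.

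Ordered by group mean, Ms4a14 ran from GFP-plus CD103 CD11b CD64 macrophages at 3.53 through GFP-plus CD11b CD64 macrophages at 1.18, then both GFP-minus macrophage groups at 0.13 and -0.01, to the DC groups at -0.78 and -0.91. The first step, 2.35 ± 0.49 (SE) log2, was free of overlap between arrays, as was that of 0.77 ± 0.49 from GFP-minus CD11b CD64 macrophages to GFP-minus DCs, and the arrays of other neighbours overlapped. GFP-minus CD103 CD11b CD64 macrophages, though higher in mean, had an array at -0.84, inside the DC range. Ms4a7 had its 4 macrophage groups at 0.003 to 0.44, with arrays that overlapped from one group to the next, then GFP-minus DCs at -3.83 ± 0.36 (SD, n = 3) and GFP-plus DCs at -6.21 ± 0.12. Both of those last steps were clear of overlap. For Ms4a4a, Ms4a4c and Ms4a6b the only step without overlap was that from the lowest macrophage group to GFP-minus DCs, and Ms4a6c and Ms4a6d had a further one between the DC gates. Ms4a4b and Ms4a1 had none.

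The genes whose 6 group means were most like each member's were found by the root mean square difference after centring, over all genes outside the list, for members whose means spanned at least 2 log2. For Ms4a7 they were C1qc, a complement subunit made by macrophages, at 0.299 log2, then Plau at 0.333 and Pla2g7 at 0.341. Nearest to Ms4a14 were Nr1d1 at 0.556, Cp at 0.565 and Pmp22 at 0.582, which is a looser likeness. Those for Ms4a4a were AW011738, Cd33 and Clec1b, at 0.246 to 0.336. Ms4a6b was closest to Tcn2, Arhgef3 and Pla2g15, at 0.147 to 0.209, Ms4a6c to Nlrp3, Milr1 and Mmp12, at 0.221 to 0.339, and Ms4a6d to Pilra, Ctsl and Tgfbi, at 0.170 to 0.205. These are descriptions over 6 means of the same arrays, in which the step from DCs to macrophages is most of what is shared.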

How the data were processed

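RNA of 18 sorted samples, 1 ng each, was amplified and hybridised to Affymetrix arrays, per the labels' protocols. The authors deposited log2 values for 33793 probes, each centred on its median over the arrays (all medians within 1e-05 of 0). The log base is not stated and was inferred from the values, of which the widest probe spanned 10.15. Software and normalization: not given in the sources used here.

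Probes with 1 symbol in the supplied platform annotation (23521; 1814 had several and 8458 none) were averaged per gene, which left 22180 genes. Using limma 3.58.1 (R 4.3.3), lmFit and eBayes were run on the 18 arrays together, with a mean for each group and 12 residual and 2.09 prior degrees of freedom. Two-sided p-values were adjusted by Benjamini-Hochberg across the genes, at a threshold of 0.05. The procedure was also run on simulated data with independent noise, unlike arrays of unequal quality, and no result here rests on that run. Precision is limited by having 3 arrays in a group. The members and gene lists were chosen with earlier results of these data known. All 9 members are named, with the 3 genes most alike in group means for members spanning at least 2 log2. Genes of the marker lists are given as counts, and some that passed are named. Marker lists of 7 cell types (macrophage, DC, monocyte, B, T and NK, mast cell, enterocyte) were averaged per array. Alternatives covered the replicate block, quantile normalization, array weights, fewer populations, a robust prior, a filter on variability, single probes and left-out arrays. RefSeq supplied gene order and promoters (GRCm38.p6). The array's build is not named, so no probe coordinates are given.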

Additional observations from a re-analysis of the deposited data

Results flagged for a closer look

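The GFP difference of Ms4a7 differed between the populations, with an F-test adjusted p of 0.000118 in limma with Benjamini-Hochberg adjustment. It was -2.38 ± 0.16 log2 in CD103 DCs, with 3 of 3 GFP-plus arrays lower than all GFP-minus arrays. In the CD103 CD11b CD64 macrophages it was 0.27 ± 0.16 and in the CD11b CD64 macrophages 0.44 ± 0.16. Over 25 alternative settings the adjusted p of the F-test ran from 5.86e-05 to 0.00825. With 3 arrays per group, single arrays were not tested as outliers.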

How the results depend on the processing

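Of 72 member results under up to 28 alternatives, 19 passed, and 14 of these passed under every alternative run for them. Past the threshold, 0 changed sign. The 19 include the GFP difference of Ms4a14 that named the family and its average over both macrophage populations, and nothing is read from those. The Ms4a7 fall in GFP-plus DCs held in 26 of 26, at -2.49 to -1.58. The count of members passing for GFP in DCs, 2, was 1 with quantile normalization, only the populations compared, robust eBayes, each probe on its own, or without the 4 arrays of lowest weight, and 1 to 3 without single arrays. The count of 1 for GFP in the CD103 CD11b CD64 macrophages, and that of 1 averaged over both macrophage populations, was 0 with only the populations compared or without the 4 arrays of lowest weight, and 0 to 1 without single arrays. Both counts of 1 are Ms4a14, whose difference named the family, so nothing is read from them. The F-test count of 1 was 2 among the genes with an SD at or above the median and 1 to 2 without single arrays, where Ms4a6c (without GFP-minus DC replicate 1) or Ms4a14 was the second gene. Ms4a14 enters that count through the GFP difference that named the family, so nothing is read from it. Both macrophage over DC counts stayed at 7, except 6 in GFP-minus cells, and 0 members passed in the other comparisons under each alternative. The causes were not tested. Quantile normalization narrowed Ms4a7, Ms4a6b, Ms4a6c and Ms4a6d to 3.72, 2.55, 2.28 and 2.37 log2 in the CD103 CD11b CD64 macrophages over DCs, and Ms4a7, Ms4a6b and Ms4a6d to 3.72, 2.64 and 2.94 in the CD11b CD64 macrophages. Counts over all genes moved more: for GFP in DCs 351 became 48 with quantile normalization, 85 with DCs alone and 118 to 711 without single arrays; in the CD103 CD11b CD64 macrophages 12 became 0 to 95; in the CD11b CD64 macrophages 6 became 0 to 53; averaged over both, 92 became 9 to 654; in the F-test 80 became 32 to 226; between macrophages 16 became 3 to 42; and in GFP-minus cells alone 1758 and 1800 became 805 and 731. With a replicate block the member counts were 2, 1, 0 and 1 for GFP, 1 for the F-test and 7, 7 and 0 between populations, which changed no member count; over all genes the block gave 411, 151 and 121 where 351, 92 and 80 passed for DCs, both macrophage populations and the F-test. The labels give no shared source for a number, and 13 of 45 same-number correlations of deviations were over 0.1 (-0.172 to 0.337), so the numbers were not taken to pair the arrays. That 11 of 18 arrays correlated best with their own number is a hint from the data, and pairing is unknown. Restricting the populations gives no separate fit for the F-test, which was not run. Absolute signal is absent, so a filter on variability stood in for one on dim probes.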
